A study of Mus musculus with 11 samples.

Results

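The genes described here encode transcription factors of adipocyte differentiation, in epididymal fat of mice with and without the kinin B1 receptor. They are Pparg, Cebpa, Cebpb, Rxra, Klf15, Ebf1, Ebf2, Nr1h3 and Zfp423. They were chosen by name and role, with no threshold on their signals, and all probe sets annotated to them were taken: 18 probe sets for 9 genes, out of 45037 non-control probe sets. Epididymal fat is a visceral depot of white fat beside the testis. One one-colour array was hybridized per sample, 11 in all, from male C57BL/6 mice aged 3 months. Wild-type mice (B1+/+) gave 4 arrays, and so did knockout mice (B1-/-), in which Bdkrb1, the gene of the receptor, is disrupted. The 3 fat rescue arrays came from mice on the same knockout background that carry a receptor transgene (aP2B1-B1-/-). The name aP2 stands for Fabp4, a gene of adipocytes whose promoter gives transgenes expression in fat, though macrophages can use it as well. The labels call the arrays of a genotype biological replicates and do not say whether animals were pooled or littermates.

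White adipocytes arise from fibroblast-like precursors through a cascade of transcription factors. Zfp423 marks committed preadipocytes, C/EBPbeta acts early after the adipogenic stimulus, and PPARgamma and C/EBPalpha, which sustain each other's expression, hold the mature state. PPARgamma binds DNA together with the retinoid receptor RXRalpha, while KLF15, EBF1 and EBF2 and the oxysterol receptor LXRalpha (Nr1h3) add to the programme or act within it. Whole fat holds precursors, blood vessels and immune cells beside adipocytes, and in such bulk tissue fewer cells of a type cannot be told apart from less RNA per cell.

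The tissue carried the signals of fat. Fabp4 ranged from 18598 to 29006 over the 11 arrays and Adipoq from 15589 to 23627, whereas 8 of 9 epididymis and accessory gland markers lay below the filter on dim probe sets. Every array had a trimmed mean between 199.1 and 199.997. A shared scaling step sets such a value, so it does not show that the arrays are comparable. The median signal was 41.3 to 45.1 in wild type, 45.6 to 46.6 in fat rescue and 46.5 to 48.8 in knockout. Every wild-type median thus lay below those of the other genotypes. The number of arrays limits the precision. Bdkrb1 read 57.8 to 73.4 in fat rescue, 3.7 to 32.2 in wild type and 4.8 to 29.7 in knockout. Whether its probe set lies inside the disrupted part of the gene is not stated, so the low signals of both groups without the transgene neither check nor contradict their labels. In a principal component analysis, wild-type array 1 lay farthest from the rest on the leading component (19.8% of the variance), at -68.1. Rescue array 1 and wild-type array 2 followed at -28.1 and -27.0, and the other 8 arrays lay between 2.46 and 33.9. Values without wild-type array 1 and rescue array 1 are given for the genes whose difference turned or moved most.

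None of the 9 genes passed the test in any comparison. The test was limma's moderated test on log2 signals, with Benjamini-Hochberg adjustment over the 27022 probe sets in the upper 60% by brightness; 17 of the 18 probe sets of the 9 genes were among them, and each gene had at least 1. In knockout against wild type 0 of 17 probe sets had an adjusted p under 0.05, where 0.0296% of all probe sets did. In fat rescue against knockout it was 0 of 17 beside 0% of all, in fat rescue against wild type 0 of 17 beside 0.0222%, and in the F test over the 3 genotypes 0 of 17 beside 0.0259%. With so few calls among all probe sets, a count of 0 in 17 does not set these genes apart. At an unadjusted p under 0.05 the counts were 1, 1 and 2 of 17 in the pairwise comparisons, beside 7.64%, 3.69% and 7.75% of all, and 1 of 17 in the F test beside 6.37%. The smallest adjusted p among the 17 was 0.644, 1.0 and 0.544 in these comparisons and 0.710 in the F test. The sizes that the arrays leave possible are given by the 95% intervals below.

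**Figure D1:**
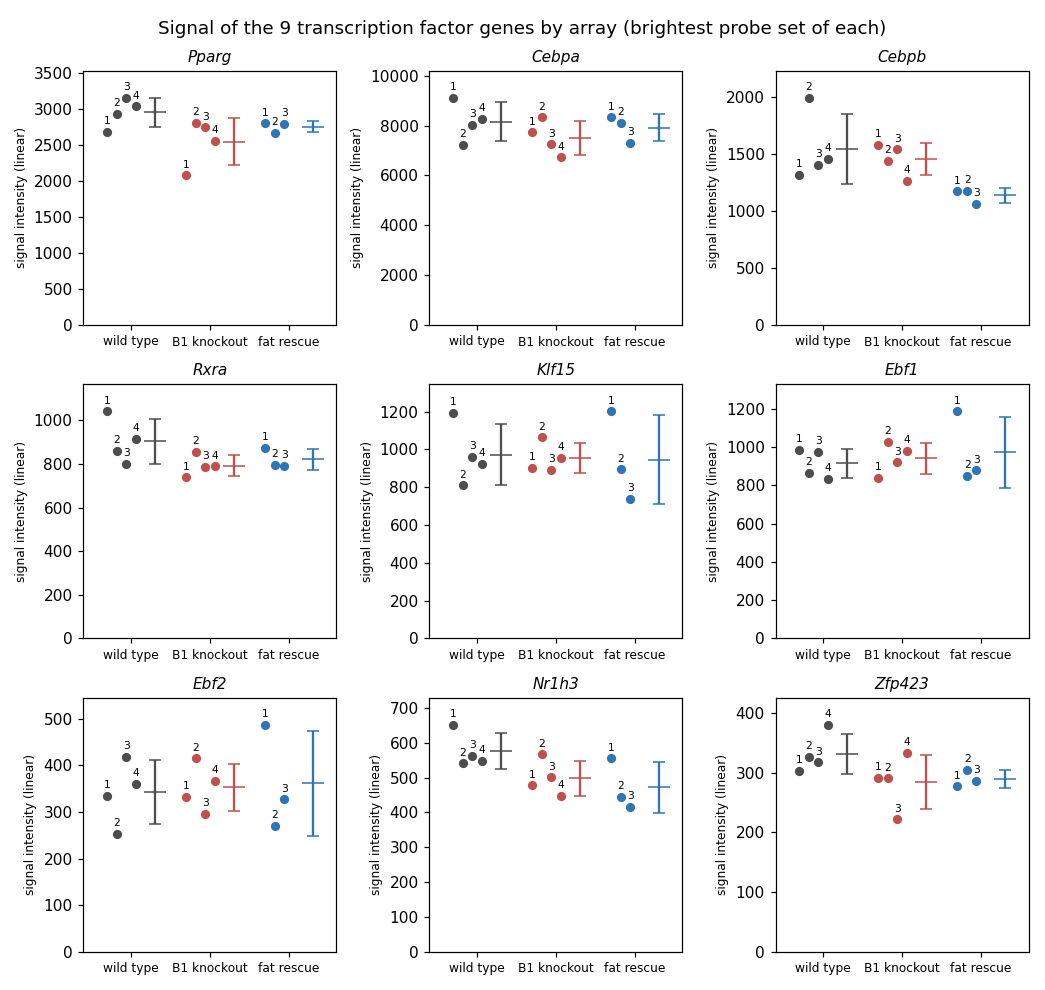
Signal intensity (linear, from 0) of the brightest probe set of each gene, with 1 numbered point per array and, beside the points, the mean with its SD (n = 4, 4 and 3). The groups overlap in 8 of the 9 panels; for Cebpb the 3 rescue arrays, at 1061 to 1173, lie below the 8 others.

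Pparg encodes PPARgamma, the nuclear receptor that adipocyte differentiation requires. Its single probe set read 2686.5, 2932, 3154 and 3041 in the wild-type arrays. The knockout arrays read 2081, 2808, 2744 and 2561, and the rescue arrays 2804, 2669.9 and 2793. Knockout array 1 was the lowest of all 11, and the highest knockout array lay above the lowest wild-type array, so the groups overlapped. Wild type averaged 2953 ± 200 (SD, n = 4), knockout 2549 ± 329 (n = 4) and fat rescue 2756 ± 74.5 (n = 3). Knockout minus wild type was -0.22 ± 0.10 on the log2 scale (SE; 95% interval -0.43 to -0.010; unadjusted p = 0.0412; adjusted p = 0.644 by limma), and so did not pass. The difference was -0.13 without knockout array 1, -0.14 with quantile normalization and -0.37 when each array was centred on its median. Knockout array 1 also had the highest summed signal of 15 macrophage markers, 39174 against 17864 to 31080 in the 10 other arrays; the part of this in the Pparg value was not tested. Fat rescue differed from knockout by 0.12 ± 0.11 (interval -0.10 to 0.35) and from wild type by -0.098 ± 0.11 (interval -0.32 to 0.13).

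Of Pparg, 3 transcript starts had a promoter window here (mouse assembly GRCm38.p6, plus strand of chromosome 6), and the probe set gives 1 value for the gene. The gene itself is listed from base 115360879, before the first of these starts, so they need not be all of its starts. Of these 3 starts, the farthest upstream and the farthest downstream are shown, because C/EBP proteins are known to act on Pparg. Each window, from RefSeq, holds 250 bases before and 50 bases after the start. The motif TTGCNNAA, searched on both strands, is in capitals; it is a common form of the C/EBP site. It occurred in 10.8% of 32841 promoter windows of the same length.
Pparg, upstream start, chr6:115360894-115361193: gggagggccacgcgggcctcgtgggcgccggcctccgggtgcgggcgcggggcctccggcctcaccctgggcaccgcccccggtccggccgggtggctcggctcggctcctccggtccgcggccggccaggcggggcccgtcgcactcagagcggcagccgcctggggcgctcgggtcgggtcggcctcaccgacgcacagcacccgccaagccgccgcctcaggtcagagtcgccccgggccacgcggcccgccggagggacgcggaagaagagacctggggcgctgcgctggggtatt
Pparg, downstream start, chr6:115421816-115422115: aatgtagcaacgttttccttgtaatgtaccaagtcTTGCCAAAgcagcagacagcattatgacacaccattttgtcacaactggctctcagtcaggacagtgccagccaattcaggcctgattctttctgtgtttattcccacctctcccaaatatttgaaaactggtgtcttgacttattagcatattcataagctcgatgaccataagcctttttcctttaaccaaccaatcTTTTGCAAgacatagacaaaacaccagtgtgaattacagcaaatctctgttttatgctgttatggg
The upstream window held no match and was 80.3% G and C. The downstream one, at the start of the fat-enriched PPARgamma2 transcript, held 2 matches that do not overlap, beginning at positions -215 and -16 from the start, and was 40.3% G and C. A match is a description of the letters and not a site shown to be bound.

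Cebpa encodes C/EBPalpha, the partner of PPARgamma in the mature adipocyte. The wild-type arrays read 9111, 7217, 8041 and 8272, the knockout arrays 7727, 8337, 7254 and 6722, and the rescue arrays 8331, 8109.9 and 7321. The ranges lay almost wholly within each other, and Cebpa varied least of the 9 genes, with a highest array 1.36 times the lowest. Knockout minus wild type was -0.12 ± 0.094 (SE; 95% interval -0.32 to 0.084; adjusted p = 0.773), fat rescue minus knockout 0.079 ± 0.10 (interval -0.14 to 0.30), and fat rescue minus wild type -0.040 ± 0.10 (interval -0.26 to 0.18). Leaving out wild-type array 1 moved knockout minus wild type to -0.065 and leaving out knockout array 4 to -0.068; it was -0.045 with quantile normalization and -0.27 with median centring. Fat rescue minus wild type turned to 0.0041 with quantile normalization.

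Cebpb, which encodes the early factor C/EBPbeta, showed the largest differences of the 9 genes in both comparisons with fat rescue by the brightest probe set of each gene, and these did not pass either. A dim Ebf1 probe set, at 23.3 to 44 in those arrays, was at -0.38 ± 0.34 in fat rescue minus knockout. The brighter Cebpb probe set read 1315, 1990.3, 1405 and 1455 in the wild-type arrays. The knockout arrays read 1582, 1441, 1539.6 and 1265, and the rescue arrays 1171, 1173 and 1061. All 3 rescue arrays were below all 8 others, while wild type and knockout overlapped. Of all probe sets 0.451% had every rescue array below the other 8. The means were 1541 ± 305 (SD, n = 4), 1457 ± 141 (n = 4) and 1135 ± 64.4 (n = 3). Fat rescue minus wild type was -0.42 ± 0.13 on the log2 scale (SE; 95% interval -0.71 to -0.14; unadjusted p = 0.00670; adjusted p = 0.544), and fat rescue minus knockout -0.36 ± 0.13 (interval -0.64 to -0.072; unadjusted p = 0.0179; adjusted p = 1.0). Rescue and knockout did not overlap in 1 of the 17 probe sets, 5.88% beside 5.08% of all probe sets (2.46% with rescue lower), and rescue and wild type in 1 of 17 beside 8.39% (3.01% with rescue lower). In knockout against wild type it was 0 of 17 beside 4.17%.

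The other Cebpb probe set read 491.5, 657, 454 and 514 in wild type. The knockout arrays read 479.9, 420.3, 480.5 and 421, and the rescue arrays 476, 397 and 442. Here knockout and rescue overlapped, and the differences were -0.22 ± 0.12 for knockout minus wild type, -0.040 ± 0.13 for fat rescue minus knockout and -0.26 ± 0.13 for fat rescue minus wild type. The dimmer probe set thus put rescue near knockout and the brighter one put it below. With the mean of both probe sets fat rescue minus knockout was -0.20. Wild-type array 2 was the highest array with both probe sets; without it fat rescue minus wild type was -0.29 with the brighter one.

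In some other measures the rescue arrays stood apart from the wild-type arrays and overlapped the knockout arrays. The 15 macrophage markers summed to 25933 to 31080 in fat rescue, 17864 to 25397 in wild type and 19744 to 39174 in knockout, with none below the filter. The 11 mesothelial markers summed to 5657 to 6144, 3068 to 5156 and 4527 to 6184 in that order, again with none below the filter. The actin 3'/5' signal ratio, which tracks how intact the RNA was, lay at 1.47 to 1.56 in fat rescue, 1.65 to 1.83 in wild type and 1.53 to 1.69 in knockout. The same ratio of Gapdh did not set the rescue arrays apart. It lay at 0.918 to 0.950 in fat rescue, 0.918 to 1.029 in wild type and 0.865 to 1.001 in knockout. The part of these measures in the Cebpb values was not tested.

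The Cebpb promoter window is shown because the rescue arrays lay below all others with the brighter probe set of this gene, though not with the dimmer one. It lies on the plus strand of chromosome 2. Capitals mark TGACG on either strand (CGTCA where it lies on the minus strand), the half-site bound by CREB-family factors, which are known inducers of Cebpb in preadipocytes.
Cebpb, chr2:167688665-167688964: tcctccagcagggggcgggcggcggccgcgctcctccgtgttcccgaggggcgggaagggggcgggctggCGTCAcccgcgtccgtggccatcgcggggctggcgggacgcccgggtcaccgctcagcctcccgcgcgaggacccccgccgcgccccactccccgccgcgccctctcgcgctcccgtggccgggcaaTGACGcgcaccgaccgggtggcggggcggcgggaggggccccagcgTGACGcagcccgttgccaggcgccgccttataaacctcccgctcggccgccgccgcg
The window held 3 matches that do not overlap, at -180, -53 and -7 from the start, where 20.8% of all windows held at least 1. It was 80.7% G and C, beside a median of 52.7% over all windows. Of the 9 genes 8 had at least 1 window in the RefSeq table, 14 windows in all, and the one not matched was Ebf2.

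**Figure D2:**
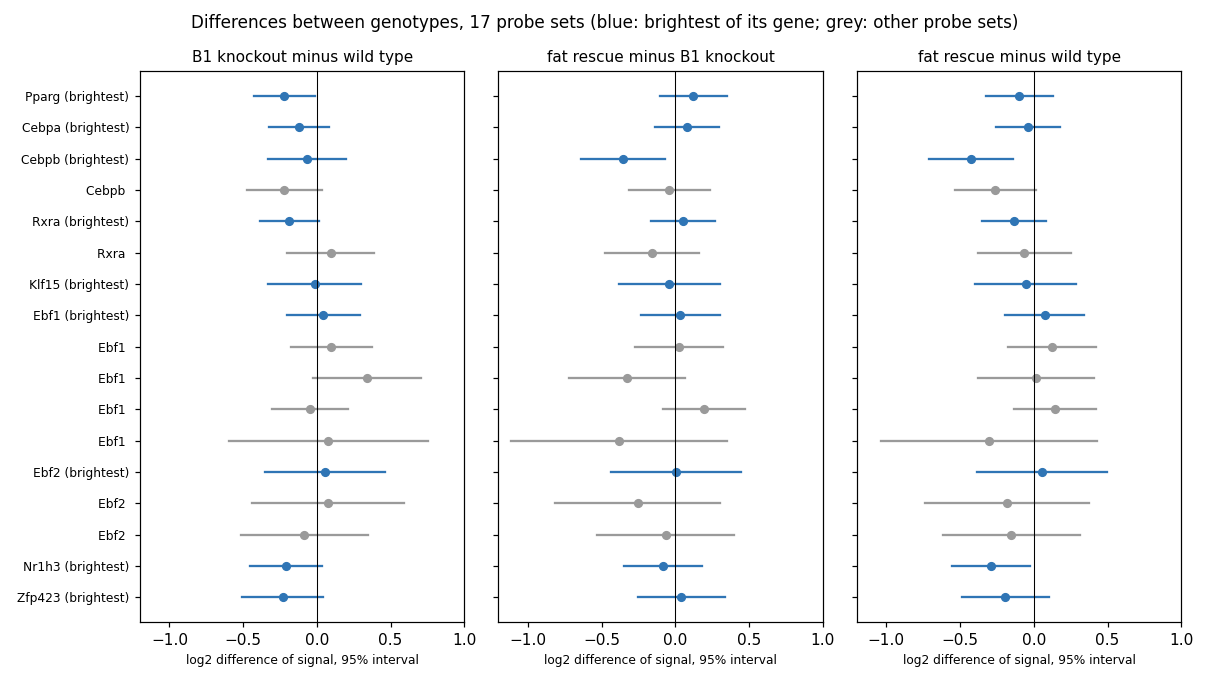
Log2 difference of signal (horizontal axis) with its 95% interval for the 17 probe sets kept, in the 3 comparisons; blue marks the brightest probe set of a gene. Intervals of the brightest probe sets exclude 0 for Pparg in knockout minus wild type, for Cebpb in both comparisons of fat rescue, and for Nr1h3 in fat rescue minus wild type, all before adjustment.

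Rxra, the usual partner of PPARgamma and of LXRalpha on DNA, had 3 probe sets. The brightest read 1041, 861, 800.1 and 917 in the wild-type arrays, 739, 855, 786 and 789.9 in the knockout arrays, and 875, 796 and 792 in the rescue arrays. Wild-type array 1 was the highest, and the lowest wild-type array lay among the others. The knockout-minus-wild-type difference was -0.19 ± 0.094 (SE; 95% interval -0.39 to 0.016; adjusted p = 0.671). It was -0.12 without wild-type array 1, -0.34 with median centring and -0.047 when both kept probe sets were averaged. Fat rescue minus knockout was 0.051 ± 0.10 and fat rescue minus wild type -0.14 ± 0.10. The second probe set gave 0.092 ± 0.14 for knockout minus wild type, the opposite sign, and its signals ran with those of the first at only r = 0.25 over the 11 arrays. The third read 1 to 7.1 in every array and was below the filter, so it gave values only.

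Nr1h3 encodes LXRalpha, the oxysterol receptor that controls cholesterol export and lipogenic genes in adipocytes and macrophages. The wild-type arrays read 651, 541, 563 and 547.5, the knockout arrays 478, 566.5, 501 and 447, and the rescue arrays 556, 445 and 416. Knockout array 2 and rescue array 1 lay within the wild-type range and the other arrays of those genotypes below it. The means were 575.5 ± 51.3 (SD, n = 4), 498 ± 50.6 (n = 4) and 472 ± 73.6 (n = 3). Fat rescue minus wild type was -0.29 ± 0.12 (SE; 95% interval -0.56 to -0.028; unadjusted p = 0.0329; adjusted p = 0.630), and it was -0.35 without wild-type array 1 and rescue array 1. Knockout minus wild type was -0.21 ± 0.11 (interval -0.45 to 0.036; adjusted p = 0.692), and fat rescue minus knockout -0.083 ± 0.12. Macrophages also express Nr1h3, and their markers summed higher in every rescue array than in every wild-type array, as given above. Their part in the Nr1h3 values was not tested.

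Zfp423, a zinc finger factor of preadipocytes and perivascular cells that favours Pparg expression, read 303, 327, 317 and 380.2 in wild type. The knockout arrays read 292, 291, 222 and 333, and the rescue arrays 277, 305.5 and 286. Knockout array 3 was the lowest and wild-type array 4 the highest, with the remaining arrays close together. Against wild type, knockout differed by -0.23 ± 0.13 (SE; 95% interval -0.51 to 0.042; adjusted p = 0.695); it was -0.12 without knockout array 3 and -0.38 with median centring. Fat rescue minus knockout was 0.039 ± 0.14 and fat rescue minus wild type -0.19 ± 0.14 (interval -0.49 to 0.10). The summed signal of 13 preadipocyte and fibroblast markers covered 31056 to 42010 (wild type), 34436 to 56113 (knockout) and 37293 to 40884 (fat rescue), with none below the filter. The sums overlapped, but 11 of the 13 markers had higher means in knockout than in wild type (median 0.16). In fat rescue it was also 11 of 13, though not the same 11 (median 0.14). Dcn was lower in both, Pi16 only in knockout and Mfap5 only in fat rescue. Their part in the Zfp423 values was not tested.

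Klf15, a zinc finger factor induced by glucocorticoids that promotes adipogenesis, had means that nearly coincided. Wild type averaged 971 ± 161 (SD, n = 4), knockout 954 ± 78.4 (n = 4) and fat rescue 944 ± 235 (n = 3). The spread within genotypes was much larger than the difference between them. Wild-type arrays read 1193, 809, 959 and 923.5, knockout arrays 902, 1063, 893 and 956, and rescue arrays 1200.1, 894 and 737. Its knockout-minus-wild-type difference was -0.015 ± 0.15 (SE; 95% interval -0.33 to 0.30; adjusted p = 0.988), which turned to 0.0034 with quantile normalization. Fat rescue minus knockout was -0.041 ± 0.16 (0.0065 with median centring) and fat rescue minus wild type -0.056 ± 0.16 (interval -0.40 to 0.29). With wild-type array 1 and rescue array 1 left out, the 3 differences were 0.088, -0.23 and -0.14.

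Ebf1 and Ebf2 encode early B cell factors, which are expressed in the adipocyte lineage besides other tissues, and EBF2 marks brown and beige precursors. Ebf1 had 5 probe sets that passed the filter. With the brightest, wild-type arrays read 987, 864, 974 and 833, knockout arrays 840.1, 1027, 919 and 979.8, and rescue arrays 1186, 850.1 and 879. Rescue array 1 stood above all others, and the rest overlapped. Knockout minus wild type was 0.042 ± 0.11 (SE; 95% interval -0.21 to 0.29; adjusted p = 0.948), but -0.11 with median centring. Fat rescue minus knockout was 0.033 ± 0.12 and fat rescue minus wild type 0.074 ± 0.12; without wild-type array 1 and rescue array 1 these were -0.12 and -0.040, and the second was -0.028 with median centring.

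The Ebf1 probe sets did not tell the same story. In knockout minus wild type they ranged from -0.049 ± 0.12 to 0.34 ± 0.17, the latter with means of 665 ± 142 in wild type and 839.5 ± 155 in knockout (unadjusted p = 0.0650; adjusted p = 0.671). Over the 11 arrays their log2 signals ran together at r = 0.86 for the 2 brightest and at r = -0.38 for the pair least alike. B cells express Ebf1 as well. The 10 B cell markers on the array summed to 6202 to 10321 in wild type, 4903 to 8662 in knockout and 2884 to 9599.6 in fat rescue; Pax5, a defining B cell factor, and Fcrla and Cr2 were below the filter. Most of that sum was Ighm, the heavy chain of IgM, at -0.41 ± 0.36 in knockout and -0.39 ± 0.39 in fat rescue against wild type. The other 6 of the 7 measured markers had higher means in both, and the medians of the 7 were 0.27 and 0.33. Their part in the Ebf1 values was not tested.

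Ebf2 read 335, 253, 419 and 361 with its brightest probe set in wild type. The knockout arrays read 332, 415, 295 and 367, and the rescue arrays 487, 270.1 and 327. Rescue array 1 was the highest and wild-type array 2 the lowest of all, so each genotype covered most of the range. Ebf2 in knockout differed from wild type by 0.056 ± 0.19 (SE; 95% interval -0.35 to 0.46), fat rescue minus knockout 0.0025 ± 0.20 and fat rescue minus wild type 0.058 ± 0.20 (adjusted p = 0.959, 1.0 and 0.960). All 3 directions turned with another scaling: with median centring knockout minus wild type was -0.094 and fat rescue minus wild type -0.044, and with quantile normalization fat rescue minus knockout was -0.00056. The other 2 probe sets gave 0.075 ± 0.24 and -0.087 ± 0.20 for knockout minus wild type, and their r with the brightest was -0.047 and 0.62.

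Set side by side, 7 of 9 genes had a lower mean in knockout than in wild type, with a median log2 difference of -0.12. Of all 12709 genes, each by its brightest probe set, 46.3% were below 0, with a median of 0.016. In fat rescue against wild type, which shares the wild-type arrays, it was also 7 of 9, with a median of -0.098 beside 44.3% and 0.028. In fat rescue against knockout 3 of 9 were lower, with a median of 0.033 beside 47.4% and 0.010. Over the 17 kept probe sets, 10, 12 and 9 were lower in the same order, with medians of -0.049, -0.098 and -0.040. Of all 27022 probe sets 41.7%, 41.7% and 49.8% were lower, with medians of 0.042, 0.045 and 0.00059. The 2 genes with higher means in both comparisons with wild type were Ebf1 and Ebf2. Centring each array on its median moved the median of all probe sets from 0.042 to -0.11 in knockout minus wild type and from 0.045 to -0.058 in fat rescue minus wild type. The medians of the 9 genes then moved to -0.27 and -0.20, and all 9 were lower in both. Centring thus moved the 9 genes and all probe sets by the same amount, and the distance between them stayed the same. With quantile normalization the medians of the 9 genes were -0.045 and -0.050 with 6 of 9 lower in each. Beside these, the medians of all probe sets were -0.00019 and 0.0069, so the distance was smaller with quantile normalization. The lowest adjusted p, 0.185, was with median centring, for Pparg in knockout minus wild type.

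**Figure D3:**
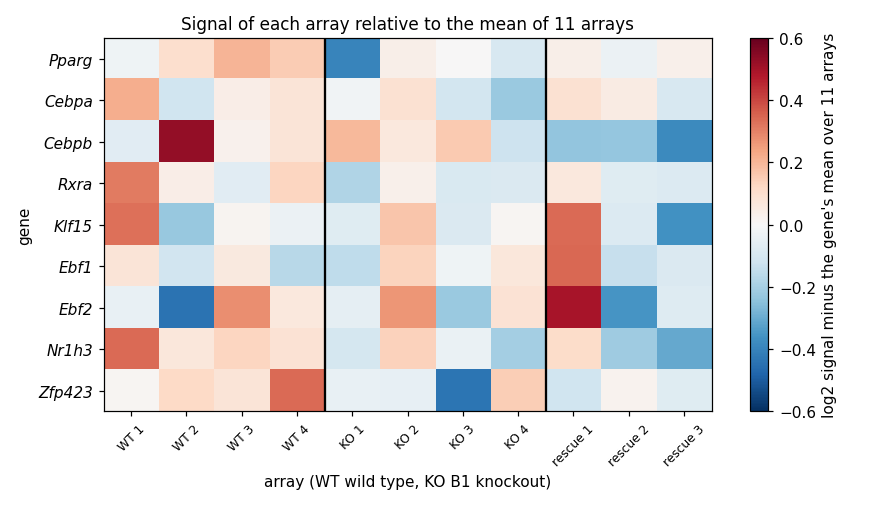
Log2 signal of each array (columns) minus the mean of that gene over the 11 arrays (rows), brightest probe sets. Klf15, Ebf1 and Ebf2 are highest in rescue array 1, Rxra and Nr1h3 in wild-type array 1, and Cebpb in wild-type array 2.

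Some pairs of the genes were high or low in the same arrays. The share of positive pairs among other genes was not computed, so the counts below do not set these genes apart. As a description over the 11 arrays, which share 1 scaling step, 29 of 36 pairs of genes had a positive Pearson r of their log2 signals (median 0.26), and 20 of 36 once the mean of each genotype was taken out. Rxra and Nr1h3 came first, at r = 0.78 (Spearman's rho 0.69), followed by Klf15 and Ebf1 at 0.77 (rho 0.69) and Ebf1 and Ebf2 at 0.77 (rho 0.62). Without wild-type array 1 and rescue array 1 these were 0.59, 0.61 and 0.65. Within genotypes they were 0.72, 0.81 and 0.77. Pparg and Cebpa, which sustain each other in cultured adipocytes, had r = 0.16 (rho 0.20), and Pparg and Rxra 0.39 (rho 0.55). Leaving out wild-type array 1 and rescue array 1, the latter were 0.23 and 0.70, and within genotypes -0.15 and 0.028. Cebpb had r = -0.32 with Ebf1 (rho -0.41) and -0.38 with Ebf2 (rho -0.32), which were -0.11 and -0.25 without those 2 arrays.

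Among 12700 other genes, those whose log2 signals over the 11 arrays were most like Pparg were Ctdspl (r = 0.90, rho 0.80), Adamtsl3 (0.89, rho 0.88), Shisal1 (0.89, rho 0.86), Bud13 (0.87, rho 0.55) and A4galt (0.87, rho 0.64). The genes most like Cebpa were Aoc3, an amine oxidase abundant on adipocytes (r = 0.93, rho 0.87), Cav1, the coat protein of caveolae (0.91, rho 0.82), and Ndufb8, a subunit of respiratory complex I (0.91, rho 0.85). They were followed by Ap3b1 (0.91, rho 0.92) and Atp5a1, a subunit of the ATP synthase (0.90, rho 0.83). For Cebpb they were Dusp8, a phosphatase of MAP kinases (0.87, rho 0.81), Nek7 (0.86, rho 0.84), Mical3 (0.85, rho 0.73), Fam214b (0.84, rho 0.81) and Naif1 (0.83, rho 0.78). These are the highest of many values computed on 11 arrays. With wild-type array 1 and rescue array 1 left out, these 15 values lay between 0.84 and 0.93. Once the mean of each genotype was taken out, r was 0.81 (Bud13) to 0.93 (A4galt) for Pparg and 0.89 (Atp5a1) to 0.96 (Aoc3) for Cebpa. For Cebpb it was 0.67 (Mical3) to 0.86 (Naif1), with Dusp8 at 0.77.

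The wider adipogenic network was described with lists of genes, each gene by its brightest probe set, and none of the listed genes passed in any comparison. Over all 12709 genes the median was 0.016, 0.010 and 0.028 in knockout minus wild type, fat rescue minus knockout and fat rescue minus wild type, with 46.3%, 47.4% and 44.3% of genes below 0. Close relatives of the 9 factors numbered 8 measured of 11, and 7 were lower in knockout than in wild type (median -0.13). Ppard, the widely expressed PPAR, averaged 308 ± 30.6 (SD, n = 4), 232 ± 49.8 (n = 4) and 292 ± 37.9 (n = 3) in wild type, knockout and fat rescue, with -0.43 ± 0.16 (SE) for knockout minus wild type (adjusted p = 0.587). Zfp521, which opposes Zfp423, was at 0.32 ± 0.15 (adjusted p = 0.667).

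Of 21 other pro-adipogenic transcription factors, 13 were lower in knockout than in wild type and 11 in fat rescue, with medians of -0.037 and -0.018. Srebf1, the lipogenic factor SREBP1, had means of 3208 ± 539.6, 2463 ± 342 and 2510.3 ± 507 in wild type, knockout and fat rescue (-0.38 ± 0.15 and -0.36 ± 0.17 against wild type; adjusted p = 0.625 and 0.645). Nr3c1, the glucocorticoid receptor, was higher in every rescue array than in every wild-type array (0.19 ± 0.091, adjusted p = 0.653), and Creb1, an inducer of Cebpb, was higher in every knockout array than in every wild-type array (0.20 ± 0.098, adjusted p = 0.665). Of 22 anti-adipogenic regulators measured, 14 had higher means in knockout and 19 in fat rescue than in wild type, with medians of 0.10 and 0.16. With median centring these medians were -0.047 and 0.060. Centring moved the medians of all probe sets as well, to -0.11 and -0.058, and the distance of the list from them stayed the same. Id2, an inhibitor of helix-loop-helix factors, read 283 ± 50.7, 417 ± 74.5 and 397 ± 90.5 in wild type, knockout and fat rescue (0.56 ± 0.18 for knockout minus wild type, adjusted p = 0.580). The list was set by name, and whether Id2 acts against adipogenesis in this tissue was not tested. Id3 and Klf3 were at 0.44 ± 0.15 and 0.25 ± 0.090 in fat rescue minus wild type (adjusted p = 0.596 and 0.603).

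Among 21 coregulators 7 were lower in knockout and 8 in fat rescue than in wild type (medians 0.034 and 0.046). Lpin1, a phosphatidate phosphatase that also coactivates nuclear receptors, averaged 5983 ± 332, 5067 ± 931 and 4287 ± 640 in wild type, knockout and fat rescue, where every array was below every wild-type array (-0.49 ± 0.14, adjusted p = 0.479). Of 21 adipocyte genes known as targets of PPARgamma and C/EBPalpha, 20 were lower in knockout and 18 in fat rescue than in wild type, with medians of -0.25 and -0.27. In fat rescue against knockout 10 were lower (median 0.0087). The macrophage and mesothelial sums given above were higher in every rescue array than in every wild-type array, while those of knockout and wild type overlapped. Gene by gene, 15 of 15 macrophage markers (median 0.21), 10 of 11 mesothelial markers (0.18) and 11 of 13 preadipocyte and fibroblast markers (0.16) had higher means in knockout than in wild type, and in fat rescue 14 of 15 (0.31), 10 of 11 (0.38) and 11 of 13 (0.14). None of these markers passed, and their part in these values was not tested. Mgll, the monoglyceride lipase, read 10595 ± 496, 8500.1 ± 909 and 8615 ± 613 in wild type, knockout and fat rescue (-0.32 ± 0.091 for knockout minus wild type, adjusted p = 0.488). Pck1, a glyceroneogenic enzyme, and the lipid droplet protein gene Cidec were at -0.37 ± 0.15 and -0.28 ± 0.11 in knockout minus wild type (adjusted p = 0.629 and 0.623). Cidea, a lipid droplet protein of brown and beige fat, had signals of 18.2 to 121.8, too low for an exact size (-1.37 ± 0.37 in fat rescue minus wild type, adjusted p = 0.456). The brightest targets were closer to 0, with Fabp4 at -0.13 ± 0.14 and Adipoq at -0.13 ± 0.13 in knockout minus wild type. Without rescue array 3 the median of the targets in fat rescue minus wild type was -0.13. Of 12 LXR targets 9 and 8 were lower than in wild type (medians -0.091 and -0.051); Cd5l, a macrophage gene, was at 0.63 ± 0.30 in knockout (adjusted p = 0.659).

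Brown adipocyte markers were listed beside these, since EBF2 is known from brown and beige precursors. Of 9 on the array Ucp1, Elovl3, Dio2 and Zic1 were below the filter, so the defining thermogenic gene gave no test. The 9 summed to 597 to 754 in wild type, 455 to 638 in knockout and 355 to 472 in fat rescue. Of the 5 measured, 5 had lower means in fat rescue than in wild type (median -0.27) and 3 in knockout (median -0.19). Cox8b, a cytochrome oxidase subunit of brown fat and muscle, averaged 290.3 ± 63.3 (SD, n = 4), 179 ± 38.1 (n = 4) and 114 ± 14.04 (n = 3), with no overlap between any of the genotypes. Its difference was -1.33 ± 0.20 in fat rescue minus wild type (adjusted p = 0.0540), -0.70 ± 0.18 in knockout minus wild type (adjusted p = 0.414) and -0.62 ± 0.20 in fat rescue minus knockout (adjusted p = 1.0). Ebf2 itself was at 0.058 in fat rescue minus wild type, as given above.

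**Figure D4:**
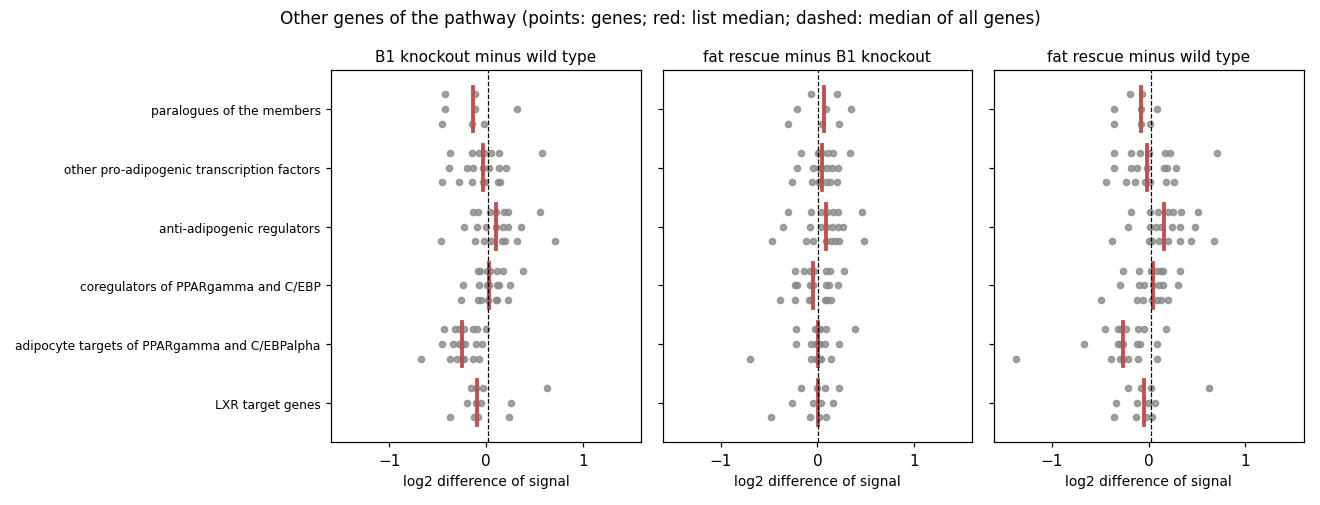
Log2 difference of each listed gene (grey points), the list median (red) and the median of all genes (dashed) in the 3 comparisons. The targets of PPARgamma and C/EBPalpha have medians of -0.25 and -0.27 in the comparisons with wild type and 0.0087 in fat rescue minus knockout.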

How the data were processed

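Total RNA of epididymal fat had been labelled with biotin and hybridized to 11 one-colour arrays. The deposited values are a signal intensity per probe set, linear, made by the authors with GCOS 1.3 and MAS5 per the submitters' processing notes; the genome build is not given in the sources used here. No detection calls were used. One value of 0 was set to 0.1 before log2 was taken. No further normalization was applied, since the log2 medians of the arrays spanned 0.241. The wild-type medians were the lowest, as given above. Probe sets were named from GEO's platform annotation; of 45101, 64 were controls, 34945 had 1 gene symbol, 932 several and 9160 none. Promoter windows and gene names came from RefSeq tables of GRCm38.p6.

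The upper 60% of non-control probe sets by mean log2 signal (27022) were fitted over all 11 arrays using genotype as the only factor (R 4.3.3, limma 3.58.1, eBayes trend on). P-values are two-sided with Benjamini-Hochberg adjustment over all 27022, threshold 0.05. Intervals are 95%, unadjusted. Where one gene stands for several probe sets, the brightest was used (12709 genes). The fitting steps were tested on simulated data. The genes and lists were chosen with earlier results of these data known. All 9 genes are named; in each list, up to 4 genes with the smallest p of the F test, or for cell types the 3 brightest, could be named, and not all are; for likeness the 5 highest r were taken for Pparg, Cebpa and Cebpb. Fabp4 and Adipoq are also named as checks of the tissue. Alternatives were another normalization, log2(value + 50), other filters, other choices among probe sets, eBayes without trend or robust, array weights, fits of only the groups compared, blocking on replicate number, and leaving out arrays. Same-numbered arrays of different genotypes had deviations from their group means that correlated at -0.088 to 0.22, over 0.1 in 3 of 10 pairs, so unpaired fits were kept. Batches are not labelled. The labels do not say whether replicates came from separate animals, so p-values measure only the spread between these arrays.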

Additional observations from a re-analysis of the deposited data

Results flagged for a closer look

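In the second probe set of Rxra, wild-type array 2 read 184, while the other 3 wild-type arrays read 254.6 to 265.9. Its distance to the nearest of them was 0.882 of the whole range of the 4 arrays on the log2 scale. The cut-off for such a flag is one that chance alone passes in about 1 in 20 groups. Wild type and knockout were screened in the 17 kept probe sets, while fat rescue, with 3 arrays, was not. With so many groups screened, a flag like this can arise by chance.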

How the results depend on the processing

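None of the 9 genes passed in any of the 24 alternatives, the lowest adjusted p being 0.185 (Pparg, knockout minus wild type, median centring). Of 648 values for the brightest probe sets 604 kept their sign and 44 turned. Apart from the values in the report, knockout minus wild type turned for Klf15 to 0.016 with array weights and 0.088 without wild-type array 1 and rescue array 1. Averaging all kept probe sets of a gene turned fat rescue minus knockout to -0.053 for Rxra, -0.092 for Ebf1 and -0.11 for Ebf2, and for Ebf2 to -0.052 with array weights and -0.23 without wild-type array 1 and rescue array 1. Fat rescue minus wild type turned for Ebf2 to -0.092 with that average, -0.025 with array weights and -0.18 without those 2 arrays. Ebf1 without those 2 arrays read -0.12 against knockout and -0.040 against wild type. The values that turned for Klf15, Ebf1, Ebf2 and Cebpa with quantile normalization or median centring were 0.0034, -0.11, -0.094, 0.0065, -0.00056, 0.0041, -0.028 and -0.044. The cause was not tested.

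Leaving out 1 array at a time, knockout minus wild type ranged from -0.14 to 0.062 for Cebpb, -0.0017 to 0.095 for Ebf1, -0.081 to 0.16 for Ebf2 and -0.098 to 0.088 for Klf15. Fat rescue minus knockout ranged from -0.12 to 0.12 for Ebf1, -0.23 to 0.19 for Ebf2, -0.23 to 0.12 for Klf15, -0.21 to 0.0021 for Nr1h3 and -0.075 to 0.12 for Zfp423. Fat rescue minus wild type ranged from -0.098 to 0.015 for Cebpa, -0.078 to 0.16 for Ebf1, -0.18 to 0.25 for Ebf2 and -0.24 to 0.11 for Klf15.

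Over all probe sets 8, 0 and 6 passed in knockout minus wild type, fat rescue minus knockout and fat rescue minus wild type, and 7 in the F test. Median centring gave 14, 0, 10 and 11; the brightest probe set per gene 5 and 2 in the comparisons with wild type, where fewer features are tested; averaging the probe sets of a gene 4 and 1, and 2 in the F test; eBayes without trend 5, 3 and 4; only the groups compared 5 and 3; and the F test without wild-type array 1 and rescue array 1 gave 11. With each array left out in turn the counts were 5 to 14 (14 without wild-type array 1), 0 throughout, 2 to 7 (2 without rescue array 3) and 5 to 10. Calls split into 5 higher and 3 lower in knockout minus wild type, and 4 and 2 in fat rescue minus wild type; with median centring these were 4 and 10, and 4 and 6. In fat rescue minus wild type the replicate number as a block gave 3 of all probe sets and 0 of the 17. In the other comparisons the block changed no call among the 17 either. Of 11 arrays 3 correlated best with an array of their own number. The number of arrays, 3 or 4 a group, limits the precision.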
